A study of Ovis aries with 15 samples.

Results

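Cyclins, cyclin-dependent kinases (CDKs) and CDK inhibitors were followed in the sheep mammary gland across the change from late pregnancy to lactation. Members were all features of the deposited table whose whole symbol was CCN with a letter and an optional number, CDK with a number, or CDKN with a digit and an optional letter from A to D, and 48 of 24691 features qualified. Of these, 16 were grouped as cell cycle cyclins and kinases, 7 as inhibitors, 12 as cyclins and kinases of transcription, and 13 as other cyclins and kinases. CDK11, CDK20, CDKN2A, CCNI2, CCNL2, CCNM, CCNP and CCNQ were not analysed here.

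The tissue was needle biopsies of the mammary gland of 2 year old Romney ewes in their first pregnancy, taken at day 135 ± 2.4 (SD) of gestation or at day 15 ± 1.27 (SD) post partum. RNA of several ewes was pooled for each of the 9 late pregnancy libraries and 6 lactation libraries, with 3 ewes per pool according to the methods and 3 (late pregnancy) or 2 (lactation) according to the sample labels. All ewes were themselves fed alike, but their dams had been fed ad libitum (HM), at maintenance (MM) or below maintenance (LM) in early gestation, which gave 3 late pregnancy and 2 lactation pools in each dam nutrition group. The methods describe late pregnancy sampling of these ewes and sampling again in lactation, so the states share animals, but which pools share ewes is not given in the sources used here, and the libraries were treated as independent. All p-values therefore refer to the spread between pools, not between single ewes.

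A cyclin binds and activates its CDK, and the level of many cyclins rises and falls through the cell cycle. D-type cyclins with CDK4 and CDK6, and then E-type cyclins with CDK2, drive the passage from G1 into S phase by phosphorylating the retinoblastoma protein, after which A-type and B-type cyclins with CDK2 and CDK1 carry cells through S phase and mitosis. Inhibitors of the CIP/KIP and INK4 families hold these kinases back. A second branch of the family (CDK7, CDK8, CDK9, CDK12, CDK13, CDK19 and their cyclins H, C, T and K) does not follow the cell cycle and instead acts on RNA polymerase II. In the mammary gland, epithelial cells multiply during pregnancy and mostly secrete milk in lactation.

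Reads on exons numbered 6471237 to 16898986 in late pregnancy libraries and 9014506 to 24001031 in lactation libraries. The 7 milk protein genes CSN2, CSN1S1, CSN1S2, CSN3, LALBA, BLG and GLYCAM1 mark the secretory gland, and their part of these reads was 13.7 to 23.4% before birth and 71.3 to 75.8% after it. The 48 members held 0.200 to 0.250% of reads in the former state and 0.0541 to 0.0696% in the latter. Levels are therefore given as CPM (reads per 1e+06 reads) of library sizes scaled by the trimmed mean of M-values (TMM), and a log2 change is that of lactation over late pregnancy. A gene was called at a Benjamini and Hochberg adjusted p under 0.05 in the edgeR quasi-likelihood F-test over all 13345 tested features.

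Most cell cycle members were more highly expressed during late pregnancy, whereas members of the transcription branch changed by less than 2-fold and in both directions. Of the 43 members with enough reads to be tested, 21 were called lower and 12 higher in lactation, and 10 were not called. Among all tested features 68.4% were called, 35.2% as lower and 33.1% as higher, so a call alone was common. Of the 16 cell cycle cyclins and kinases, 12 were called lower and 1 higher, and 8 fell by more than 2-fold, against 13.0% of all features. CCNA1 alone of this list rose by more than 2-fold, as did 9.13% of all features. Of the 12 transcription members 2 were called lower and 6 higher, and none changed by more than 2-fold. All 5 tested inhibitors were called lower. The median log2 change was -1.03 for cell cycle members, -0.77 for tested inhibitors, 0.19 for transcription members and 0.22 for tested other members, beside -0.03 for all features. Libraries of the 2 states did not overlap for 24 of the 43 tested members, 17 of them lower and 7 higher in lactation, and for 40.2% of all features.

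These directions depended on how libraries were scaled. With library size alone, where milk protein reads count in the total, the median of all features moved to -1.94, the cell cycle median to -2.93 and the transcription median to -1.72. It called 12705 of all features lower and 352 higher. Upper quartile scaling moved the median of all features to -0.18, called 5990 features lower and 3420 higher against 4703 and 4419 with TMM, and left 5 transcription members called lower and 3 higher. A scaling factor shifts all genes nearly alike, so a member's position relative to the median of all features was nearly fixed across these scalings and is no sign of stability. The gap between the cell cycle and transcription medians was -1.22 on the log2 scale with TMM and lay between -1.30 and -0.90 over 27 ways of fitting. These include the TMM fit itself and other scaling factors, which for the same reason could hardly move the gap. It was -0.71 when only genes with 10 reads in every library were kept, which left 6 cell cycle members. In bulk tissue, fewer cells of a type and less RNA per cell cannot be told apart.

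**Figure D1:**
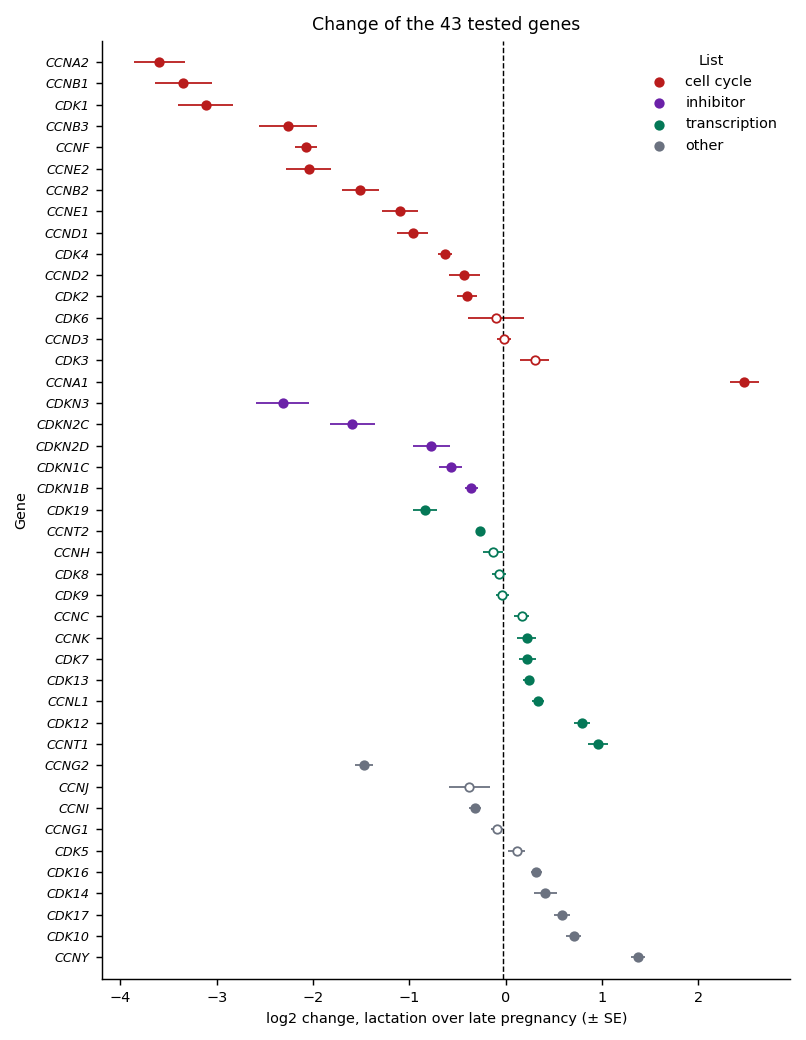
log2 change of lactation over late pregnancy (x axis, ± SE, 9 late pregnancy and 6 lactation libraries, TMM scaling) for the 43 tested genes (y axis), coloured by list; filled points were called at an adjusted p under 0.05, open points were not, and the dashed line is the median of all tested features (-0.03). CCNA2, CCNB1 and CDK1 lie farthest to the left and CCNA1 farthest to the right, and transcription members stay within 1 log2 unit of 0 with this scaling, whereas with library size alone all but 1 of the higher ones, CCNA1, turn negative.

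The sharpest falls were in cyclins and the kinase of S phase and mitosis. CCNA2, the cyclin that pairs with CDK2 in S phase and with CDK1 before mitosis, lies on chromosome 6 (3656685 to 3663736 in the coordinates of the deposited table, which the methods place on version 3.2 of the sheep genome and the labels on Oar_v 3.1). Its level ranged from 5.75 to 12.7 CPM in late pregnancy (median 10.4) and from 0.338 to 1.36 CPM in lactation (median 0.820), with no overlap, and the log2 change was -3.60 ± 0.27 (SE, adjusted p = 3.24e-10). CCNB1 (chromosome 16, 10486231 to 10495255), the main mitotic cyclin, ranged from 7.41 to 15.9 CPM (median 11.0) in late pregnancy and from 0.352 to 2.00 CPM (median 0.834) in lactation. Its log2 change was -3.35 ± 0.30 (adjusted p = 4.44e-09). CDK1 (chromosome 25, 16420600 to 16433019), the kinase that starts mitosis, ranged from 4.74 to 11.8 CPM (median 7.91) and from 0.659 to 1.33 CPM (median 0.873), and fell by 3.12 ± 0.28 on the log2 scale (adjusted p = 6.60e-09). All 9 late pregnancy libraries exceeded every lactation library for each of these genes, which kept only 3 to 11 reads of CCNA2, 2 to 23 of CCNB1 and 3 to 11 of CDK1 per lactation library.

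Sequence copies elsewhere in the genome touched these measurements. Only 44.9% of reads of CCNB1 and 71.1% of those of CDK1 were placed uniquely, against 99.7% or more for every other cell cycle member. Counting unique reads only, the log2 change was -3.14 for CCNB1 (adjusted p = 6.13e-09) and -3.23 for CDK1 (adjusted p = 1.07e-08). CCNA2 shares 52 bases with the neighbouring EXOSC9, and since the library kit did not keep strand, reads in that stretch cannot be told apart.

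The remaining B-type cyclins and cyclin F moved the same way by less. CCNB2 (chromosome 7), a second mitotic cyclin, went from 4.38 to 7.57 CPM in late pregnancy (median 6.32) to between 1.35 and 3.62 CPM in lactation (median 2.23), a log2 change of -1.51 ± 0.19 (adjusted p = 9.91e-07). CCNB3 (chromosome X), best known from meiosis, was low in both states, with 1.19 to 2.22 CPM (median 1.42) and 0 to 0.435 CPM (median 0.303). Its fall of 2.26 ± 0.30 (adjusted p = 1.52e-06) rested on 0 to 5 reads per lactation library. CCNF (chromosome 24), which binds no CDK but forms part of a ubiquitin ligase, had the smallest SE of this group, with 12.0 to 16.8 CPM (median 13.8) against 2.66 to 4.18 CPM (median 3.21) and a log2 change of -2.07 ± 0.11 (adjusted p = 3.77e-12). None of these genes overlapped between the states.

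E-type cyclins, which activate CDK2 at the entry into S phase, also fell. CCNE2 (chromosome 9) ranged from 3.80 to 6.08 CPM in late pregnancy (median 4.43) and from 0.440 to 2.00 CPM in lactation (median 1.00), a log2 change of -2.04 ± 0.23 (adjusted p = 1.72e-07). CCNE1 (chromosome 14) ranged from 2.22 to 4.05 CPM (median 3.08) and from 1.01 to 1.90 CPM (median 1.37), a log2 change of -1.09 ± 0.19 (adjusted p = 3.83e-05). Neither overlapped, although CCNE2 shares 280 bases with INTS8, a gene with more reads.

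D-type cyclins, which link growth signals to the cell cycle, did not move together. CCND1 (chromosome 21) had 2.71 to 4.29 CPM in late pregnancy (median 3.80) and 1.13 to 2.28 CPM in lactation (median 1.96), with no overlap and a log2 change of -0.96 ± 0.16 (adjusted p = 2.82e-05). CCND2 (chromosome 3) had 2.10 to 2.91 CPM (median 2.28) and 1.05 to 2.31 CPM (median 1.82), and its change of -0.43 ± 0.16 (adjusted p = 0.0242) was smaller and overlapped. That call was lost with DESeq2 (adjusted p = 0.0569) and without lactation pool 2 of HM, 1 of MM or 2 of MM (adjusted p = 0.0515 to 0.0897). CCND3 (chromosome 20) was per kilobase of exon the most abundant D-type cyclin and ranged from 22.2 to 30.8 CPM (median 27.2) and from 24.1 to 28.8 CPM (median 26.8), with a log2 change of -0.02 ± 0.07 (adjusted p = 0.846), though it was called lower with upper quartile scaling (0.0488) and limma (0.00648). Exon models of CCND1 and CCND3 in the table are short (485 and 681 bases).

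Among the kinases of G1 and S phase, CDK4 (chromosome 3), the partner of D-type cyclins, fell from 17.5 to 21.1 CPM (median 19.8) to between 11.5 and 15.2 CPM (median 12.4), a log2 change of -0.63 ± 0.07 (adjusted p = 1.98e-07) with no overlap. CDK2 (chromosome 3), the partner of cyclins E and A, had 7.77 to 10.3 CPM (median 8.67) and 6.0 to 8.13 CPM (median 6.98), and its change of -0.40 ± 0.10 (adjusted p = 0.00163) overlapped. CDK6 (chromosome 4), the relative of CDK4, was scarce, with 0.517 to 1.29 CPM (median 0.919) and 0.381 to 1.23 CPM (median 0.834). A change of -0.10 ± 0.29 (adjusted p = 0.773) on 2 to 12 reads per lactation library left its direction on exonic reads undetermined at this depth. CDK3, a kinase of the exit from quiescence, had a log2 change of 0.30 ± 0.15 (adjusted p = 0.0798), and most of its span holds TEN1, whose reads cannot be separated by strand.

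CCNA1 (chromosome 10, 25354349 to 25364646) was the exception in the cell cycle list. This A-type cyclin, best known from the germ line, ranged from 0.822 to 1.33 CPM in late pregnancy (median 1.06) and from 4.57 to 7.89 CPM in lactation (median 5.74). The log2 change was 2.48 ± 0.15 (adjusted p = 1.85e-11), every lactation library lay above every late pregnancy library, and it stayed higher with library size alone. It had 9 to 31 reads per library in late pregnancy and 24 to 70 in lactation, all placed uniquely. Thus the pair of A-type cyclins moved in opposite directions, with CCNA2 above CCNA1 per kilobase of exon in each late pregnancy library and below it in each lactation library.

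**Figure D2:**
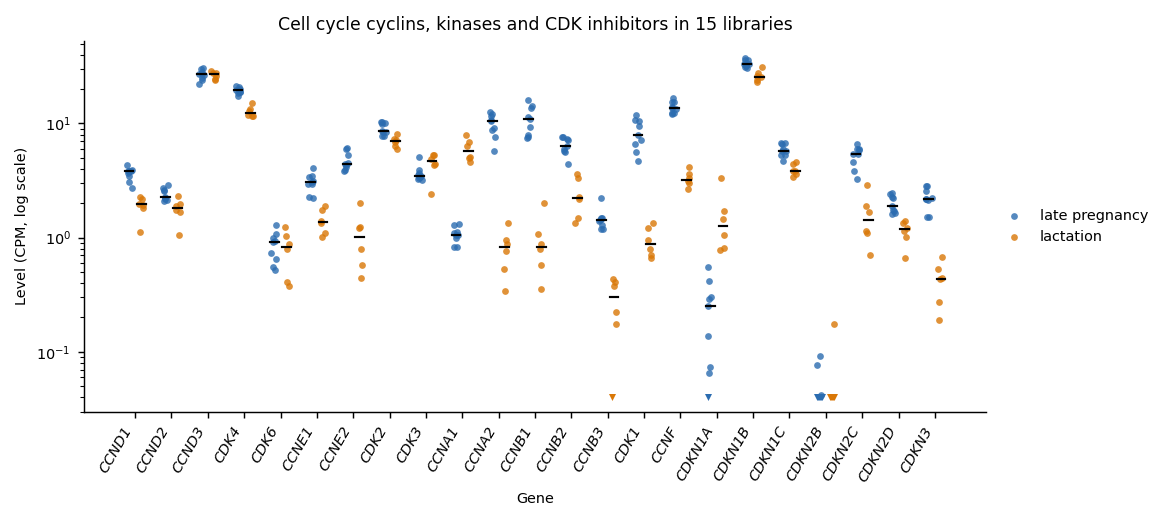
Level in CPM (y axis, log scale, TMM scaling) of each cell cycle cyclin, kinase and CDK inhibitor (x axis) in 9 late pregnancy libraries (blue) and 6 lactation libraries (orange), with black bars at medians and triangles for libraries without a read. Blue points lie above orange points without overlap for CCNA2, the B-type cyclins, CCNF, CCNE1, CCNE2, CDK1, CDK4, CCND1 and 4 inhibitors (CDKN3, CDKN2C, CDKN2D and CDKN1C), whereas CCNA1 and CDKN1A are reversed and the ranges of CCND3 overlap.

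All tested inhibitors were lower in lactation, and the size of the fall differed between them. CDKN3 (chromosome 7), a phosphatase that removes the activating phosphate from CDKs, dropped from 1.52 to 2.85 CPM (median 2.19) to between 0.190 and 0.676 CPM (median 0.437), a log2 change of -2.31 ± 0.27 (adjusted p = 3.03e-07) on 1 to 6 reads per lactation library. CDKN2C (chromosome 1), the INK4 inhibitor p18, went from 3.29 to 6.58 CPM (median 5.44) to between 0.703 and 2.87 CPM (median 1.42), a log2 change of -1.59 ± 0.23 (adjusted p = 4.21e-06). CDKN2D, the INK4 inhibitor p19, fell by 0.77 ± 0.19 (adjusted p = 0.00139). None of these 3 overlapped between the states.

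Of the CIP/KIP inhibitors, which bind cyclin-CDK complexes, CDKN1B (p27, chromosome 3) was per kilobase of exon the most abundant, with 30.6 to 37.7 CPM in late pregnancy (median 33.0) and 22.9 to 31.2 CPM in lactation (median 25.8). Its change of -0.35 ± 0.07 (adjusted p = 1.64e-04) overlapped. CDKN1C (p57, chromosome 21) ranged from 4.74 to 6.69 CPM (median 5.78) and from 3.39 to 4.62 CPM (median 3.84) without overlap, a log2 change of -0.57 ± 0.12 (adjusted p = 2.44e-04). CDKN1A (p21, chromosome 20) did not pass the filter on low counts, with 0 to 11 reads per late pregnancy library and 6 to 15 per lactation library on an exon model of 486 bases. With TMM scaling its levels were separate, at 0 to 0.548 CPM (median 0.253) and 0.783 to 3.30 CPM (median 1.26), although the ranges of its reads overlapped. Without the filter, and again with TMM, its log2 change was 2.50 (edgeR adjusted p = 4.76e-05), opposite to the tested inhibitors. That fit was not run with library size alone. CDKN2B had at most 2 reads in any library, so its level could not be compared.

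In the transcription branch the changes were small, and the members of a complex did not move alike. P-TEFb, the complex of CDK9 with cyclin T1 or T2 that releases paused RNA polymerase II, showed all of the possible outcomes. CCNT1 ranged from 5.62 to 7.77 CPM in late pregnancy (median 6.58) and from 10.3 to 14.9 CPM in lactation (median 13.0), a log2 change of 0.96 ± 0.10 (adjusted p = 7.43e-08) without overlap, which turned to -0.95 with library size alone. CCNT2, per kilobase the more abundant of these cyclins, fell from a range of 79.4 to 88.2 CPM (median 84.0) to 64.6 to 74.9 CPM (median 69.5), a log2 change of -0.26 ± 0.05 (adjusted p = 4.50e-05). CDK9 (chromosome 3) held 43.3 to 59.9 CPM (median 46.5) and 45.0 to 50.4 CPM (median 47.5), a log2 change of -0.03 ± 0.07 (adjusted p = 0.693), though it was called lower with upper quartile scaling (0.0230) and limma (0.00804).

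The elongation kinases CDK12 and CDK13 share cyclin K and phosphorylate the tail of RNA polymerase II within genes. CDK12 (chromosome 11) ranged from 15.1 to 18.3 CPM (median 17.1) and from 25.1 to 40.2 CPM (median 28.1), a log2 change of 0.79 ± 0.08 (adjusted p = 4.51e-08) without overlap, and -1.11 with library size alone. CDK13 (chromosome 4) ranged from 25.1 to 28.5 CPM (median 26.9) and from 27.5 to 35.7 CPM (median 31.3), a smaller change of 0.24 ± 0.06 (adjusted p = 0.00116) that was lost with upper quartile scaling (adjusted p = 0.175). CCNK changed by 0.22 ± 0.09 (adjusted p = 0.0477). That last call was lost on leaving out any of 11 of the 15 libraries (adjusted p = 0.0546 to 0.109), and under 5 other settings that included DESeq2 (0.0893) and dam nutrition as a covariate (0.0600).

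CDK7 and cyclin H belong to TFIIH, which opens promoters, and also activate other CDKs. CDK7 (chromosome 16) ranged from 9.12 to 11.8 CPM (median 10.5) and from 10.1 to 14.5 CPM (median 12.3), and its change of 0.22 ± 0.09 (adjusted p = 0.0284) was lost without late pregnancy pool 3 of LM or lactation pool 2 of HM, LM or MM (adjusted p = 0.0507 to 0.0868), and also with upper quartile scaling (0.535), without a filter (0.111), with 10 reads required in every library (0.157) and with limma (0.0840). CCNH had a log2 change of -0.13 ± 0.10 (adjusted p = 0.266), and was called lower with upper quartile scaling (0.0233). The kinases of the Mediator complex, CDK8 and its paralogue CDK19, differed. CDK8 (chromosome 10) had 14.9 to 18.2 CPM (median 16.4) and 14.2 to 17.6 CPM (median 15.2), a log2 change of -0.07 ± 0.07 (adjusted p = 0.408), and was called lower with upper quartile scaling (0.0102). CDK19 had 16.4 to 26.1 CPM (median 21) and 8.68 to 13.5 CPM (median 12.5), a log2 change of -0.84 ± 0.12 (adjusted p = 5.17e-06) without overlap. Their partner CCNC changed by 0.17 ± 0.08 (adjusted p = 0.0559). CCNC was called higher with lane as a covariate (0.0417). The same held without late pregnancy pool 2 of HM or MM, or lactation pool 1 of LM (adjusted p = 0.0240 to 0.0300). CCNL1, a cyclin tied to splicing, rose by 0.33 ± 0.06 (adjusted p = 8.27e-05) with TMM and had a change of -1.57 with library size alone, and its call was lost with limma (adjusted p = 0.112).

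**Figure D3:**
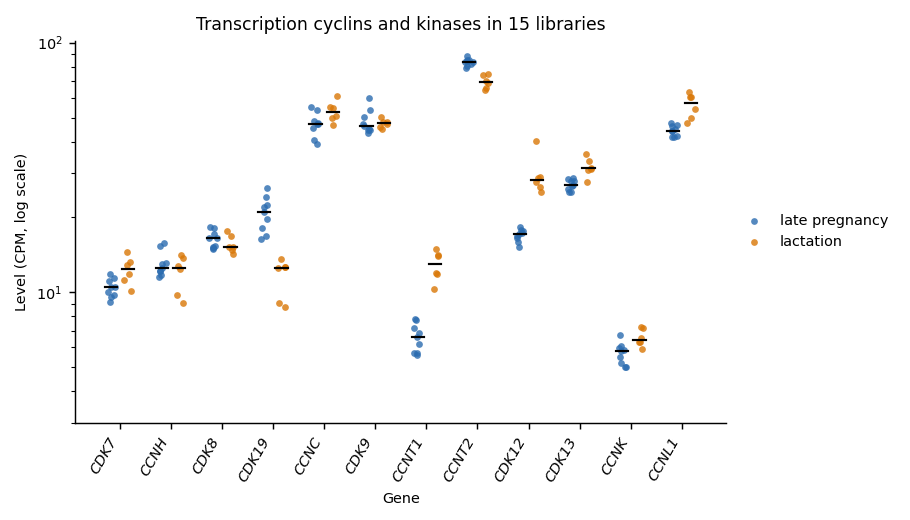
Level in CPM (y axis, log scale, TMM scaling) of each transcription cyclin and kinase (x axis) in 9 late pregnancy libraries (blue) and 6 lactation libraries (orange), with black bars at medians. CCNT1, CDK12 and CCNL1 are higher (each negative with library size alone, at -0.95, -1.11 and -1.57) and CDK19 and CCNT2 lower in lactation without overlap, whereas CDK8, CDK9 and CCNH overlap.

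Among the other cyclins and kinases, CCNY and CCNG2 were the tested members that changed by more than 2-fold. CCNY (chromosome 13), a membrane-bound cyclin that activates CDK14 and CDK16, rose from 59.3 to 66.0 CPM (median 62.8) to between 127.6 and 194.8 CPM (median 155.6), a log2 change of 1.37 ± 0.07 (adjusted p = 1.52e-12), with -0.54 under library size alone. CCNG2 (chromosome 6), a cyclin linked to cell cycle arrest, fell from 19.3 to 27.9 CPM (median 24.1) to between 7.47 and 9.32 CPM (median 8.72), a log2 change of -1.47 ± 0.09 (adjusted p = 2.19e-11). Both were without overlap. CDK10, CDK17, CDK14 and CDK16 were called higher by 0.71, 0.59, 0.41 and 0.32 on the log2 scale, each with a negative change under library size alone, and CCNI was called lower by -0.32. The call of CDK14 was lost with upper quartile scaling (adjusted p = 0.0657) and that of CDK16 with limma (adjusted p = 0.0507). CDK5, CCNG1 and CCNJ were not called (adjusted p = 0.259, 0.219 and 0.120), but with upper quartile scaling CCNG1 (0.00268) and CCNJ (0.0341) were called lower. CCNG1 was also called lower with limma (1.89e-04) and with 10 reads required in every library (0.0218). CDK18, a relative of CDK16 and CDK17, missed the filter because 1 lactation library fell short, yet it had 0 to 5 reads per late pregnancy library and 12 to 28 per lactation library. Its level was 0 to 0.248 CPM (median 0.0836) against 1.47 to 3.52 CPM (median 2.46), and without the filter the log2 change was 4.51 (adjusted p = 1.16e-10).

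Reads per kilobase of exon set the members in an order that only partly changed between states. CCNG1 and CCNI led in both states, with 185.6 ± 14.9 and 75.0 ± 4.95 CPM per kb (SD, n = 9) in late pregnancy and 174.4 ± 15.1 and 60.2 ± 5.02 CPM per kb (SD, n = 6) in lactation. CCND3 came next in late pregnancy (39.4 ± 4.03 CPM per kb), and CCNY, eighth in late pregnancy with 18.9 ± 0.726, stood above CCND3 in lactation with 48.9 ± 7.56 against 38.8 ± 2.81. CCNA2 moved from place 25 to place 42 of 43 and CCNB1 from 16 to 37, while CCNA1 moved from 42 to 24. CDK8 and CDK19 were level in late pregnancy (6.42 ± 0.504 and 6.42 ± 1.01 CPM per kb). Cell cycle members made up 43.7 to 48.4% of the summed reads per kilobase of cell cycle and transcription members in late pregnancy and 33.3 to 37.0% in lactation, a ratio within each library that no scaling can change.

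Shares within a subfamily are likewise free of scaling and were compared by an exact two-sided permutation test over all 5005 divisions of the libraries into 9 and 6, whose smallest p is 4.00e-04. Of 11 subfamilies listed, 8 were tested. L-type cyclins had only CCNL1 among the members, so no share was formed for them. CDK1 made up 52.2 ± 5.60% (SD, n = 9) of the summed reads per kilobase of CDK1 and CDK2 in late pregnancy and 14.5 ± 4.47% (SD, n = 6) in lactation (exact permutation, adjusted p = 6.39e-04). CCNT1 rose from 15.1 ± 1.53% to 29.4 ± 2.66% of the T-type cyclins, CDK12 from 41.6 ± 1.34% to 51.1 ± 4.94% of CDK12 and CDK13, and CCNG1 from 94.9 ± 0.664% to 98.0 ± 0.321% of the G-type cyclins. CDK19 dropped from 49.8 ± 4.51% to 36.5 ± 4.91% of the Mediator kinases. These 5 shares did not overlap between the states and had the same adjusted p. CCND1 fell from 15.2 ± 2.66% to 8.73 ± 2.03% of D-type cyclins with an overlap (adjusted p = 0.00107 in the exact test), while CCND3 supplied 79.2% of them in late pregnancy and 86.7% in lactation.

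The share of CDKN1B among CIP/KIP inhibitors went from 67.5 ± 3.29% to 61.9 ± 5.70% (adjusted p = 0.0347 by the exact permutation test), and this was lost without any of 4 lactation libraries (pool 1 or 2 of HM, 2 of LM or 1 of MM, unadjusted p = 0.0549 to 0.0759 in the exact test). CDKN1A accounted for 1.83 ± 1.33% of this family in late pregnancy and 13.7 ± 6.32% in lactation. The share of CDK6 in CDK4 and CDK6 was 3.01 ± 0.898% and 4.29 ± 1.99%, a difference of 1.28 percentage points that did not pass (adjusted p = 0.119, exact). E-type and A-type cyclins had fewer than 30 reads in some lactation library and were not tested.

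**Figure D4:**
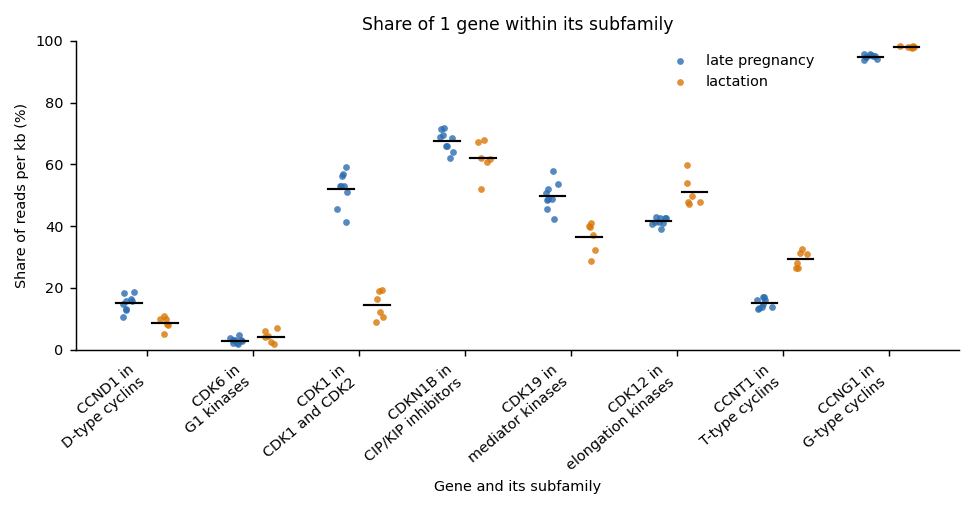
Share of 1 gene in the reads per kilobase of its subfamily (y axis, percent) for 8 subfamilies (x axis) in 9 late pregnancy libraries (blue) and 6 lactation libraries (orange), with black bars at means. The share of CDK1 falls from 52.2 to 14.5% and that of CCNT1 rises from 15.1 to 29.4% without overlap, while that of CDK6 overlaps throughout.

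Reads within a gene but outside its annotated exons, called intronic here, gave a further readout from the same libraries for 35 members. Whether they came from unspliced RNA was not tested. On these reads 17 members were called lower and 8 higher, where 29.0% of all 10344 tested features were called lower and 29.0% higher. Of 21 members called on both kinds of read, 20 had the same sign. Such agreement was not counted over all features, so it is not shown to be particular to the members. CDK1 (-2.59 ± 0.33, adjusted p = 2.95e-07), CCNB3 (-2.05 ± 0.24, adjusted p = 1.38e-07) and CCNB1 (-2.24 ± 0.54, adjusted p = 0.00111) fell on intronic reads too, as did CCNA2 (-1.49 ± 0.35) and CCNF (-0.89 ± 0.21). Each of these falls was smaller than on exons. Lactation libraries held only 0 to 6 intronic reads of CDK1, 0 to 4 of CCNB1 and 0 to 5 of CCNA2. Intronic levels of CCNB1 and CCNF overlapped between the states. CCND1 had a larger intronic than exonic change (-2.38 ± 0.33, adjusted p = 1.22e-06, on 0 to 10 intronic reads per lactation library), as had CCNY (2.57 ± 0.15, adjusted p = 2.72e-13). CCNA1 was higher on intronic reads as well, by 2.11 ± 0.29 (adjusted p = 9.88e-07). CDK17 was the exception in sign, with -0.40 ± 0.13 on introns (adjusted p = 0.0126) against 0.59 ± 0.08 on exons. CCNH and CDK9, not called on exons, had intronic changes of -0.78 ± 0.09 (adjusted p = 1.22e-07) and -0.59 ± 0.19 (adjusted p = 0.00961). CDK6 and CDK3, also not called on exons, had intronic changes of -0.60 ± 0.20 (edgeR adjusted p = 0.0125) and 0.43 ± 0.17 (edgeR adjusted p = 0.0337). CDK6 had 6 to 13 intronic reads per lactation library, and most of the span of CDK3 holds TEN1. The difference between exonic and intronic change was not tested, and 16 of the 35 members had fewer than 10 intronic reads in some lactation library.

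**Figure D5:**
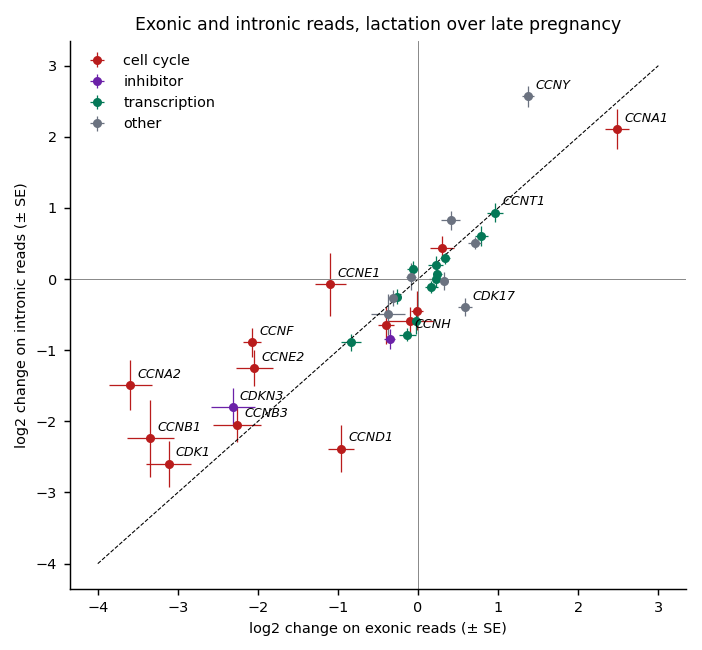
log2 change of lactation over late pregnancy on exonic reads (x axis) and on intronic reads (y axis), both ± SE, for the 35 members tested on both, coloured by list, with a dashed line where both are equal. CDK1, CCNB1, CCNB3 and CCNA2 lie at the lower left and CCNA1 and CCNY at the upper right, and CDK17 is higher on exons but lower on introns. With library size alone the exonic changes of CCNY and CDK17 turn negative (-0.54 and -1.32).

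Of 37 tested regulators of the cell cycle, 26 were called lower (35.2% of all features), 6 were called higher (33.1% of all features) and 5 were not called, with a median log2 change of -0.87. More than 2-fold lower were 17 of them, against 13.0% of all features. MKI67, the antigen used to count cycling cells, ranged from 2.60 to 16.0 CPM in late pregnancy (median 8.71) and from 0.225 to 3.66 CPM in lactation (median 0.732), a log2 change of -3.15 ± 0.48 (adjusted p = 7.96e-06) with an overlap. Only 55.1% of the reads of MKI67 were placed uniquely. TOP2A, the topoisomerase of dividing cells, fell by 3.28 ± 0.22 (adjusted p = 5.85e-11), and AURKA and AURKB, the Aurora kinases of mitosis, by 3.04 ± 0.36 and 3.25 ± 0.37 on the log2 scale. FOXM1, a factor that drives mitotic genes, fell by 3.58 ± 0.39 (0 to 5 reads per lactation library, as for AURKA), and CDC20, which targets cyclin B for degradation, by 3.07 ± 0.21. CDC25C, the phosphatase that activates CDK1, had a log2 change of -3.85 ± 0.47 on 0 to 3 reads per lactation library. CKS2, a small CDK subunit, fell by 2.41 ± 0.16, and FBXO5, which restrains cyclin degradation, by 2.23 ± 0.27.

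Of 9 tested E2F and DP factors, 6 were called lower and 2 higher. Transcripts of E2F1, E2F3, E2F7, E2F8 and TFDP2 were lower by -1.30, -1.15, -2.31, -3.75 and -1.15 on the log2 scale, with 0 to 3 reads of E2F7 and 0 to 2 of E2F8 per lactation library. E2F5 was called lower by -0.31, E2F4 and E2F6 were called higher by 0.32 and 0.51 with TMM, and TFDP1 was not called (0.15, adjusted p = 0.224). RBL1, a relative of the retinoblastoma protein, fell by 1.68 ± 0.18 (adjusted p = 9.88e-08), whereas RB1 itself had 5.02 to 8.50 CPM (median 6.82) and 7.19 to 9.90 CPM (median 7.57) and a log2 change of 0.21 ± 0.12 (adjusted p = 0.147). MYC, an activator of growth, fell from 46.2 to 56.7 CPM (median 53.5) to between 11.9 and 18.2 CPM (median 14.9), a log2 change of -1.80 ± 0.08 (adjusted p = 2.24e-13). PKMYT1, a kinase that holds CDK1 inactive, was the regulator called higher by more than 2-fold (1.12 ± 0.21, adjusted p = 8.19e-05), with -0.78 under library size alone.

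Among 19 tested partners of the transcription kinases, 3 were called lower and 11 higher with TMM, where 35.2% of all features were lower and 33.1% higher (median log2 change 0.41). ELL2, a subunit of the super elongation complex with P-TEFb, rose from 17.2 to 26.3 CPM (median 20.3) to between 113.3 and 158.0 CPM (median 133.2), a log2 change of 2.65 ± 0.09 (adjusted p = 3.66e-15). POLR2A, the largest subunit of RNA polymerase II, rose from 32.5 to 47.9 CPM (median 39.0) to between 101.1 and 127.3 CPM (median 109.9), a log2 change of 1.50 ± 0.07 (adjusted p = 3.76e-13), with -0.41 under library size alone, where ELL2 stayed at 0.75.

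Markers of other cell types shifted between the same libraries, in which 35.2% of all features were called lower and 33.1% higher. All 5 T cell markers were called lower, and their summed level was 41.0 to 67.5 CPM in late pregnancy and 13.4 to 19.9 CPM in lactation. The 4 endothelial markers were all called lower (summed 155.9 to 209.0 and 91.9 to 132.2 CPM), as were 3 of 5 macrophage markers (105.3 to 137.6 and 55.4 to 78.5 CPM) and 3 of 4 fibroblast markers (352.8 to 626.5 and 224.9 to 371.8 CPM). Of the luminal epithelial markers 4 of 6 were called higher with TMM (ELF5 and KRT19, the most abundant, turned to -1.10 and -1.29 with library size alone; summed 1417 to 1736 and 2290 to 2551 CPM), and of the myoepithelial markers 2 of 5 were higher and 2 lower (526.5 to 592.9 and 485.2 to 713.7 CPM). Adipocyte markers summed to 32.6 to 58.7 and 398.7 to 524.1 CPM. Only CIDEA had a higher mean in lactation (29.0 and 461.7 CPM), and lactating epithelium also expresses it. Of 3 tested adipocyte markers CIDEA was called higher, while ADIPOQ (means 10.1 and 7.53 CPM) and CIDEC (0.907 and 0.537 CPM) were not called. PLIN1 (0.672 and 0.461 CPM) and LEP (0.108 and 0.0829 CPM) were not tested. The B and plasma cell markers summed to at most 3.71 CPM, and 1 of them, CD79A, was tested and called lower. No listed marker was at or below 3 reads in every library, and the part of cell composition in the changes of cyclins and CDKs was not tested.

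Dam nutrition was compared over the 9 late pregnancy libraries, with 3 pools in each group. No member and none of the 13747 tested features was called by the edgeR quasi-likelihood F-test (0%), with an unadjusted p under 0.05 for 571 features and for 2 members, CDK1 and CDK2. CDK1 had 5.67, 6.58 and 7.17 CPM in the HM pools, 9.45, 10.7 and 11.8 CPM in the MM pools and 4.74, 10.5 and 7.91 CPM in the LM pools (unadjusted p = 0.0272). CDK2 had 8.35, 7.77 and 7.83 CPM in the HM pools, 10.3, 10.3 and 10.2 CPM in the MM pools and 8.35, 9.83 and 8.67 CPM in the LM pools (unadjusted p = 0.0262). Over the 43 tested members, log2 differences ran from -0.81 (CDK6) to 0.30 (CCNB3) for HM against MM and from -0.46 (CDK1) to 0.19 (CCNH) for LM against MM. The change between states did not differ by dam nutrition for any member either (0 called of 13345 features, lowest adjusted p 0.740), with unadjusted p under 0.05 for 876 features and for CDK2, CDK6 and CDK13. With 2 to 3 pools per group such differences were detectable only when large.

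Read numbers set how firmly each list could be described. All 12 transcription members had at least 10 reads in every library, but only 6 of 16 cell cycle members, 2 of 7 inhibitors and 9 of 13 other members did. Short of it were CCNA1, CCNA2, CCNB1, CCNB3, CCND1, CCND2, CCNE1, CCNE2, CDK1, CDK6, CDKN1A, CDKN2B, CDKN2C, CDKN2D, CDKN3, CCNJ, CCNO, CDK15 and CDK18. Reads per lactation library were 9 to 21 for CCND1, 6 to 20 for CCND2, 5 to 20 for CCNE1 and 2 to 23 for CCNE2. For CDKN2C they were 4 to 33, for CDKN2D 3 to 14 and for CCNJ 5 to 13. The median coefficient of variation across libraries was 16.6% in late pregnancy and 24.4% in lactation for cell cycle members and 9.25% and 10.4% for transcription members. Members that failed the filter on low counts were CDKN1A, CDKN2B, CDK15, CDK18 and CCNO. CDK15 had at most 2 reads and CCNO at most 8 reads in any library, and 3 reads correspond to 0.101 to 0.274 CPM in a late pregnancy library and 0.261 to 0.659 CPM in a lactation library, so no difference of these genes could be detected at this depth. Late pregnancy pool 1 of LM was the lowest of the 9 for 8 of 16 cell cycle members.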

How the data were processed

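Libraries of pooled biopsy RNA were read as 100 bp pairs on an Illumina HiSeq after a TruSeq kit that does not keep strand, with 2 lanes combined per library per the labels (each column header names only 1 of them, so the fit with that lane as a covariate does not separate lanes). The authors used CLC Genomics Workbench for mapping, and their deposited table holds unnormalized counts (exonic, and over the whole gene), RPKM and quantile-normalized RPKM. Columns of their own test (fold changes and p-values) were not used. The deposited counts on exons were analysed here (on the whole gene where no transcript was annotated), and intronic reads are the difference of both counts. RPKM recomputed from the deposited counts differed by at most 1.88e-06 of the value. The deposited RPKM after quantile normalization, a score whose sorted values were identical in all libraries, served 1 alternative.

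Samples were grouped by their labels. Genes passing filterByExpr of edgeR 4.0.16 (R 4.3.3) by state (13345) were scaled by TMM and compared with the quasi-likelihood F-test without covariates, with Benjamini and Hochberg adjustment over all tested features and calls at an adjusted p under 0.05. The script was tested on simulated counts. Alternatives were RLE, upper quartile and library size scaling, DESeq2 1.42.0, limma 3.58.1 on log2(RPKM + 0.1), unique reads, other filters, covariates, the replicate block and leaving out each library. Depth was 6471237 to 24001031 reads per library, and floors of 3 reads cover counting error only. No 2 libraries of a state agreed within sampling noise (chi-square per gene 5.50 to 49.8 over 51 pairs). Named genes were every member, with library values for those called with a change of more than 2-fold and a fixed set of D-type cyclins, kinases and CIP/KIP inhibitors, and partners called with a change of more than 2-fold besides MYC, RB1 and MKI67 (1 further partner is not reported here). Members and lists were chosen with earlier results of these data known. Library values of CCNT1, CCNT2, CDK19 and CDK18 lie outside that rule and were added after values were seen. No sequences are shown.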

Additional observations from a re-analysis of the deposited data

Results flagged for a closer look

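Among 86 groups of libraries (43 tested members in 2 states), 5 held a library whose gap to the nearest other exceeded Dixon's 95% critical value, where chance gives about 1 group in 20. CCNB3 stood at 2.22 CPM in late pregnancy pool 3 of HM, and the other 8 libraries lay at 1.19 to 1.48 CPM. CDK3 reached 5.10 CPM in late pregnancy pool 1 of LM (others 3.2 to 3.94 CPM) and was down to 2.42 CPM in lactation pool 1 of HM (others 4.35 to 5.30 CPM). Without either of these CDK3 libraries its log2 change between states passed the threshold (0.38, adjusted p = 0.0171, and 0.40, adjusted p = 0.0135). CCNJ had 1.71 CPM in lactation pool 2 of LM, against 1.01 to 1.13 CPM in the others. CDK12 had 40.2 CPM in lactation pool 1 of HM, against 25.1 to 28.9 CPM in the others, all of which exceeded the late pregnancy libraries.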

How the results depend on the processing

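Of the single members' values, 452 kept their direction and call under other settings, 17 lost the call, 19 gained one and 14 reversed. On leaving out 1 library 622 kept both, 18 lost the call, 5 gained one and none reversed. All 14 reversals came with library size alone, which lowers every gene by construction as milk protein reads fill the total: CDK3 -1.61, CDK5 -1.79, CDK7 -1.68, CDK10 -1.20, CDK12 -1.11, CDK13 -1.67, CDK14 -1.51, CDK16 -1.59, CDK17 -1.32, CCNC -1.74, CCNK -1.69, CCNL1 -1.57, CCNT1 -0.95 and CCNY -0.54. With it the medians were -2.93 (cell cycle) and -1.72 (transcription), 12 transcription members were called lower and 0 higher, and 10 other members lower and 0 higher. With upper quartile scaling 5 transcription members were called lower and 3 higher (median 0.042), and 4 other members lower. With at least 10 reads in every library, which removes scarce genes, 4 cell cycle members were called lower and 0 higher (median -0.60), 2 inhibitors lower, and the transcription median was 0.11, and with at least 10 intronic reads 7 members were called lower and 5 higher on introns. Limma called 2 cell cycle members higher and gave a transcription median of 0.054. Without a filter 1 inhibitor (CDKN1A) was called higher. On leaving out 1 library, 1 to 2 cell cycle members were called higher (2 without late pregnancy pool 1 of LM or lactation pool 1 of HM, through CDK3), the share of CDK6 changed by 0.756 to 1.79 percentage points (exact permutation p = 0.0320 without lactation pool 2 of LM) and that of CDKN1B by -6.82 to -3.64, or -1.83 on reads not divided by length (exact permutation p = 0.186). The cause of these was not tested.

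No pairing by pool number was detected (correlations of deviations -0.0452 to 0.120 over 6 pairs, own number best in 1). Such correlations across different states cannot show whether pools of equal number share ewes. A replicate block left 8458 features called, against 8618 for the same 12 libraries without it, and ended the call of CCND2 (adjusted p = 0.0993). The call of CDK7 was lost on these 12 libraries with the block (adjusted p = 0.130) and without it (0.133), and no other member lost its call. Counts of 0 to 12 reads per lactation library limit the precision of CCNA2, CDK1, CCNB3, CDKN3 and CDK6. Precision was also limited for CCNB1, CCND1, CCND2, CCNE1, CCNE2, CDKN2C, CDKN2D and CCNJ, with fewer than 10 reads in some lactation library.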
